A study of Homo sapiens with 8 samples.

Results

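The 2 untreated libraries described here come from H7 human embryonic stem cells that had been led in vitro toward type 2 alveolar cells, and they are the control group of a series of 8 libraries. Both libraries labelled as controls were taken, and no value was used to choose them. The other 6 libraries were exposed to bleomycin, a DNA-breaking drug, at 24, 240 or 480 µg/ml and are not analysed here. All libraries share the H7 line, which is 1 line of wild-type genotype, and the same differentiation. Per the labels, cells on vitronectin passed through definitive endoderm (6 days), anterior foregut endoderm (4 days), ventralized anterior foregut (4 days) and lung progenitors (7 days), 21 days under medium. Replated on inserts, they had 3 more days under medium and 7 days at an air-liquid interface, where the upper surface of the cells meets air. The labels do not say whether the 2 libraries came from separate cultures, so the SD over them (n = 2 throughout) may be technical. One group of 2 libraries allows no test between groups, and all that follows is a description of levels.

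Type 2 alveolar cells line the air sacs of the lung and make surfactant, a film of lipid and of the proteins encoded by SFTPA1, SFTPA2, SFTPB, SFTPC and SFTPD, which lowers surface tension. Lung, thyroid, liver, stomach, pancreas and intestine all arise from the endoderm, the inner layer of the embryo. Transcription factors divide that layer into organ fields: NKX2-1 marks the lung and thyroid field, HNF4A the liver and intestine, PDX1 the pancreas and duodenum and CDX2 the intestine. AFP is the main plasma protein of the yolk sac and fetal liver, and ALB takes its place later in development.

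Levels are given as TPM, values of a common total per library which are scaled by gene length so that genes can be compared within a library. The libraries held 55941640 and 56761677 counted reads, and 21789 and 22107 genes had at least 1 count. Where no read was counted, a true level of up to 3 counts is possible, or 0.0536 CPM (counts scaled to library size) in replicate 1 and 0.0529 CPM in replicate 2, for counting error only. A gene was called present at 1 TPM or more in both libraries, absent below 0.1 TPM in both, and at trace level otherwise. By that rule 13369 of 46427 genes (28.8%) were present, 6402 were at trace level and 26656 were absent, of which 22666 had no count in either library. All genes include non-coding genes and pseudogenes. Of the 19034 genes matched as protein-coding 11951 were present, a larger share than that of all genes. At least 10 TPM in both libraries was reached by 8079 genes (17.4%), at least 100 TPM by 1312 (2.83%) and at least 1000 TPM by 151 (0.325%). Genes assigned to 35 marker lists stood for the lineages such a culture could hold, with 444 genes in all and 26 of them on more than 1 list. The lists were chosen with earlier results of these data known, so a high count present is not independent evidence of a lineage. Each count is to be read beside the shares of all genes and of protein-coding genes present. Bulk RNA of whole cultures was measured, so fewer cells of a type and less RNA per cell cannot be told apart.

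**Figure D1:**
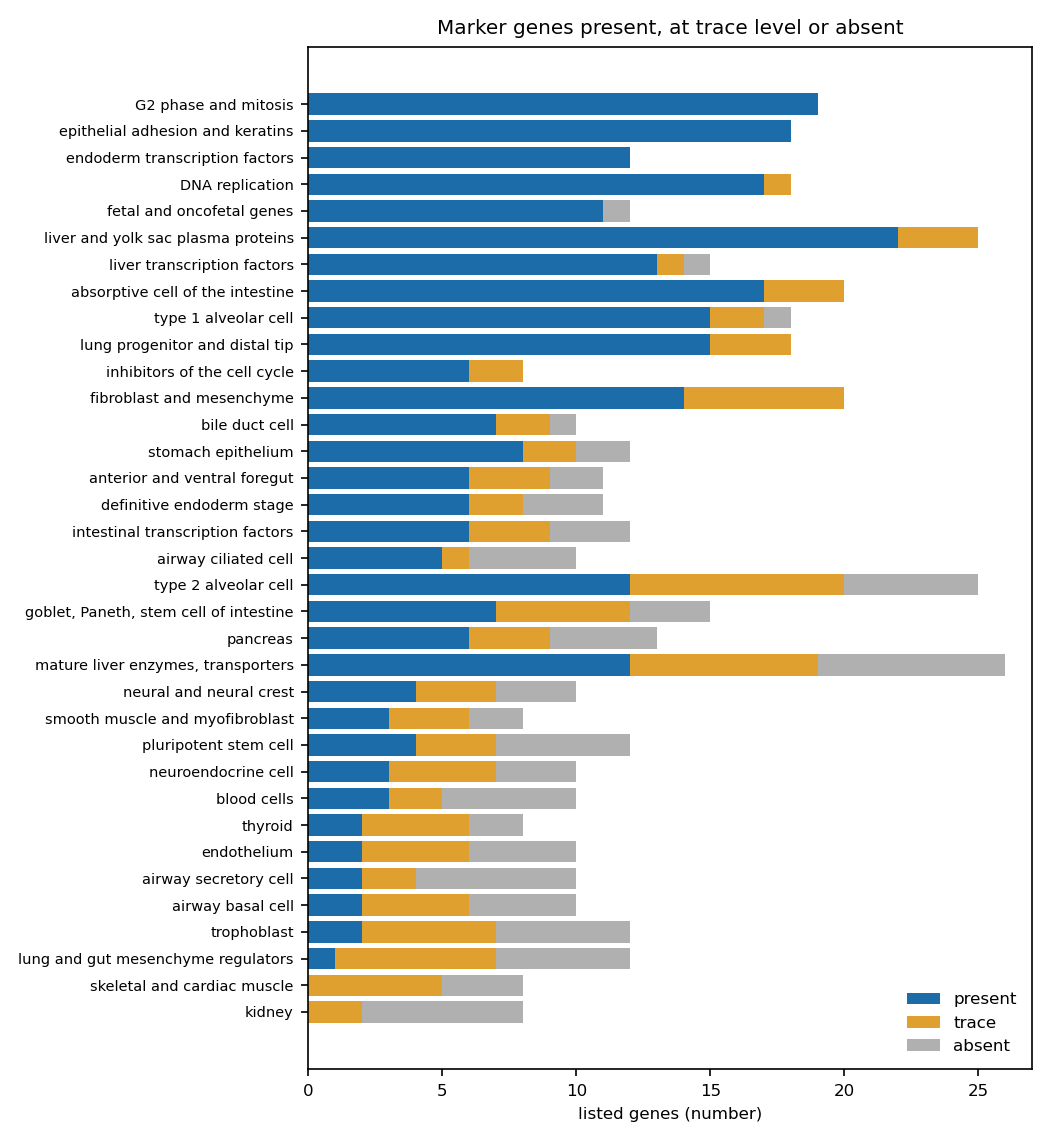
Number of genes of each marker list (horizontal axis) that were present (blue, at least 1 TPM in both untreated libraries), at trace level (orange) or absent (grey, below 0.1 TPM in both), with lists ordered by the percentage present. The G2 phase and mitosis, epithelial and endoderm transcription factor lists had every member present, while the muscle and kidney lists had none.

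Several defining markers of the type 2 alveolar cell went against the label, so the libraries are called untreated cultures here. SFTPC, the surfactant protein gene used most often to define the type 2 cell, had 0 counts in both libraries, as did SFTPA1. Its neighbour SFTPA2 had 4 and 4 counts, and since the 2 SFTPA genes are near-identical copies, the division of reads between them is uncertain. SFTPB, the surfactant protein gene that is also made by airway secretory cells, was the exception at 15.0 and 13.8 TPM (rank 7011). Its read counts ran the other way, 830 and 977, so the order of the 2 libraries depends on the scale. SFTPD was at trace level with 0.264 and 0.366 TPM, from 9 and 12 counts. NKX2-1, the transcription factor of the lung field, had 46 and 59 counts, which is 0.831 and 1.09 TPM, on either side of the limit for present. NKX2-1 lies at chr14:36516397-36520232 and SFTPB at chr2:85657307-85668741 (GRCh38.p14).

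Of the 25 genes on the type 2 list 12 (48.0%) were present, 8 were at trace level and 5 were absent. That share was above the 28.8% of all genes but below the 11951 of 19034 protein-coding genes present. The whole list made up 0.104 ± 0.00308% of TPM, and 8 members, not all named here, reached 10 TPM or more in both libraries. Absent members were SFTPA1, SFTPA2, SFTPC, CD36, a fatty acid receptor, and CSF2RA, a chain of the GM-CSF receptor. The members at the top of the list are not restricted to the lung: CTSH, a lysosomal protease that takes part in surfactant protein processing, stood at 658 and 626 TPM, FASN, fatty acid synthase, at 113 and 107 TPM, and CEBPA, a transcription factor of liver, fat and lung, at 93.5 and 82.2 TPM. LPCAT1, an enzyme of surfactant phospholipid synthesis, followed with 67.6 and 70.2 TPM. Genes for the lamellar bodies in which surfactant is stored were low: ABCA3, their lipid transporter, was present at 4.02 and 5.10 TPM, and LAMP3, their membrane protein, was at trace level with 0.644 and 0.737 TPM. NAPSA, the aspartic protease that processes surfactant proteins, was at trace level too, with 0.273 and 0.241 TPM. The summed TPM of the 5 surfactant protein genes thus came almost wholly from SFTPB.

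**Figure D2:**
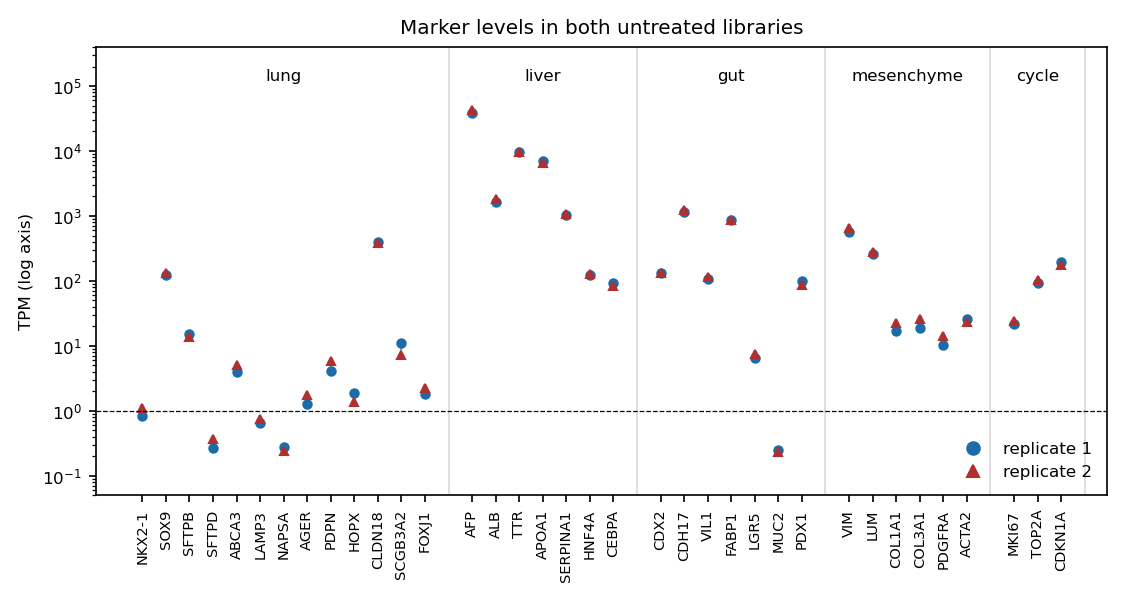
TPM (log axis) of chosen markers of lung, liver, gut, mesenchyme and cell cycle in untreated replicate 1 (blue circles) and replicate 2 (red triangles); the dashed line is 1 TPM and genes at 0 counts are not drawn. Of the 13 lung markers drawn, 11 lie under 20 TPM in both libraries, while the 7 liver markers run from 82.2 to 43234 TPM.

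The lung progenitor list was mostly present, and several of its leading members are shared with other endoderm organs. In that list 15 of 18 members were present, 3 were at trace level and none was absent. The share present was above the 28.8% of all genes and the 11951 of 19034 protein-coding genes. ID2, an inhibitor of basic helix-loop-helix factors, led with 325 and 342 TPM, followed by ETV4, an effector of FGF signalling, with 135 and 126 TPM. SOX9, which marks the distal lung tip but also bile duct, pancreas and gut progenitors, stood at 125 and 131 TPM, and FOXP4, a forkhead factor, at 115 and 105 TPM. SOX2, a factor of the anterior foregut and of pluripotent cells, was present at 17.5 and 20.003 TPM. The 3 members at trace level were NKX2-1, SFTA3, whose gene lies beside NKX2-1, and SFTA2, a secreted lung protein. SFTA3 had 16 and 31 counts and SFTA2 had 16 and 11. Per unit length CDX2 was 160 and 120 times as high as NKX2-1 in replicates 1 and 2, and HNF4A was 146 and 118 times as high.

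Type 1 alveolar cells are the thin cells across which gas is exchanged. On their list 15 of 18 genes were present, above the 28.8% of all genes and the 11951 of 19034 protein-coding genes. The median over the list was 5.50 TPM, and 6 members, not all named here, reached 10 TPM or more in both libraries. CLDN18, a tight junction protein, led at 395 and 386 TPM, but it is also on the stomach list, and a value per gene does not separate its lung and stomach isoforms. VEGFA, the vessel growth factor, stood at 132 and 154 TPM, GPRC5A, a retinoic acid-induced receptor, at 116 and 119.7 TPM, and SEMA3B, a semaphorin, at 73.0 and 64.2 TPM. The markers used most often to define the type 1 cell were low. AGER, the receptor for advanced glycation end products, had 1.25 and 1.77 TPM, PDPN, podoplanin, had 4.08 and 5.93 TPM and HOPX, a homeodomain cofactor, had 1.89 and 1.34 TPM. AQP5, the water channel, was absent with 4 and 2 counts. CLDN18 was 315 and 218 times as high as AGER.

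The counts of the airway lists stand beside the 28.8% of all genes and the 11951 of 19034 protein-coding genes that were present. Of the 10 basal cell genes 2 were present, the integrin genes ITGA6 (121 and 136 TPM) and ITGB4 (16.9 and 15.3 TPM), which other epithelia share. TP63, the transcription factor of basal cells, had 2 and 2 counts, and the basal keratin genes KRT5, KRT14 and KRT17 had 0 counts in both libraries. On the secretory list 2 of 10 genes were present, SCGB3A2, a secretoglobin of small airways, at 10.9 and 7.22 TPM, and SPDEF, a goblet cell factor, at 2.63 and 1.99 TPM. SCGB1A1, the main secretoglobin of club cells, lay about the limit with 1.30 and 0.799 TPM from 15 and 9 counts. The ciliated list had 5 of 10 present, above the share of all genes but below that of protein-coding genes. It was led by PIFO at 19.2 and 18.8 TPM, TPPP3 at 11.9 and 12.0 TPM, CAPS at 9.29 and 6.69 TPM and RSPH1 at 2.13 and 3.21 TPM. FOXJ1, the master factor of motile cilia, stood at 1.79 and 2.23 TPM, while the axonemal genes DNAI1 and DNAH5 were absent. Among neuroendocrine genes 3 of 10 were present, near the share of all genes and below that of protein-coding genes. They included CHGA, chromogranin A, at 6.66 and 3.51 TPM and SYP, synaptophysin, at 1.12 and 1.24 TPM. INSM1 was at trace level with 0.806 and 0.910 TPM.

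The transcriptome was led by plasma protein genes of yolk sac and fetal liver together with genes that every cell uses. AFP was the most abundant gene of both libraries, with 39081 and 43234 TPM, a mean of 41158 ± 2937, and alone made up 4.12 ± 0.294% of TPM. RefSeq places AFP at chr4:73436221-73456174 and its paralog ALB just before it at chr4:73404287-73421482 (GRCh38.p14). AFP exceeded EEF1A1, the translation elongation factor gene in second place (13496 and 12787 TPM), by 2.90 and 3.38 times. TTR, which carries thyroid hormone and retinol-binding protein, was in place 4 with 9670.5 and 9674 TPM, and APOA1, the main protein of high-density lipoprotein, in place 7 with 6921 and 6622 TPM. GPC3, a cell-surface proteoglycan of fetal liver and yolk sac, was in place 24 with 4052 and 4383 TPM.

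The other genes among the 30 most abundant were mostly those of translation, cytoskeleton and energy metabolism. Cytosolic ribosomal protein genes filled 15 of these 30 places and 50 of the first 100, and 83 of 87 such genes were present with 18.6 ± 1.15% of TPM. They included RPLP0, RPS18, RPS3A, RPL41, RPL7A, RPL3, RPL13A, RPS2, RPL12, RPS24, RPS27, RPL5 and RPL26, whose many processed pseudogenes make the assignment of some reads uncertain. FTL, the ferritin light chain, stood at 11101 and 10055 TPM, CKB, brain-type creatine kinase, at 9476 and 8613 TPM, and TMSB4X, an actin-binding peptide, at 7969.7 and 7842 TPM. The remaining places went to GAPDH of glycolysis, the actin genes ACTG1 and ACTB, the elongation factor gene EEF1G and the mitochondrial genes COX1, COX2 and RNR2. Mitochondrially encoded genes together made up 3.79 ± 0.211% of TPM and nuclear ribosomal RNA 0.839 ± 0.186%.

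The 10 most abundant genes held 11.7 ± 0.0125% of TPM, the first 100 held 37.6 ± 0.763% and the first 1000 held 70.3 ± 0.864%. Protein-coding genes made up 95.5 ± 0.124% of TPM. Long non-coding RNA genes had 459 of 12269 present and 0.864 ± 0.0129% of TPM, and the highest of them were the small nucleolar RNA hosts SNHG29 (1905 and 1739 TPM), GAS5 (752 and 716 TPM) and ZFAS1 (717 and 663 TPM).

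**Figure D3:**
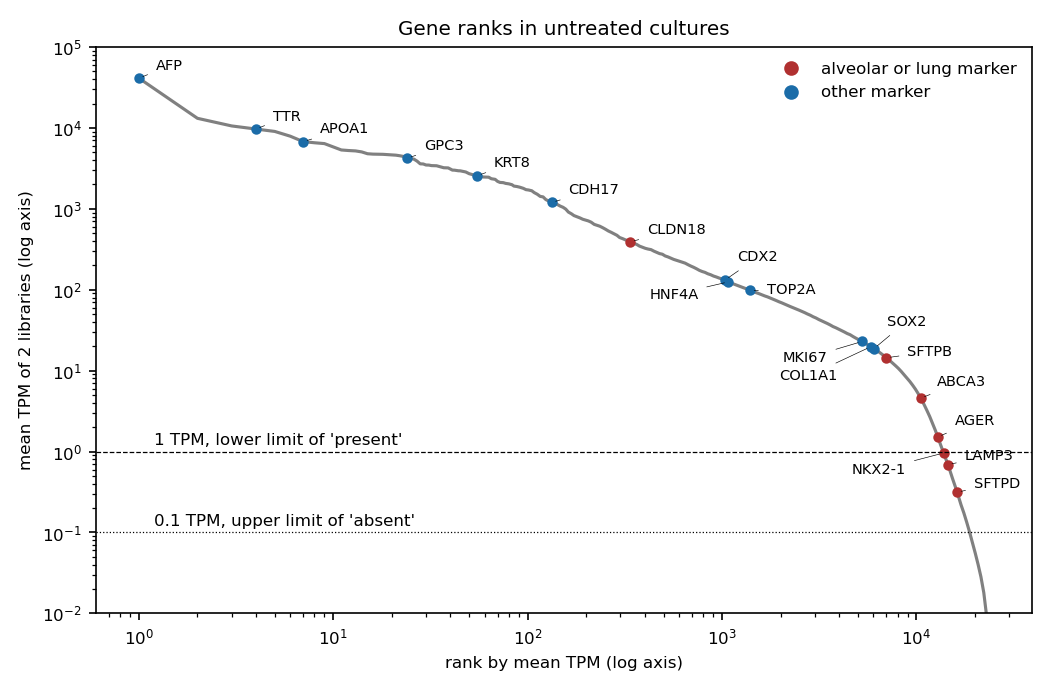
Mean TPM of the 2 untreated libraries (vertical log axis) against rank by mean TPM (horizontal log axis), with named alveolar or lung markers in red and other markers in blue. AFP stands in place 1, CLDN18 in place 337 and NKX2-1 in place 13802, beside the 1 TPM line.

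The liver list of secreted plasma proteins had 22 of 25 members present, 3 at trace level and none absent, and 14 members reached 100 TPM or more in both libraries. The 88% present was above the 28.8% of all genes and the 11951 of 19034 protein-coding genes. Together the listed plasma protein genes made up 6.62 ± 0.316% of TPM, and 2.50 ± 0.0228% without AFP. ALB, serum albumin, stood at 1636 and 1816 TPM (rank 98), so that AFP was 23.9 and 23.8 times as high in the 2 libraries. Of the fibrinogen chains FGB was highest with 1042 and 1323 TPM, ahead of FGA with 277 and 321 TPM and FGG with 125 and 153 TPM. SERPINA1, the inhibitor of neutrophil elastase, had 1043 and 1071 TPM, and VTN, vitronectin, had 1174 and 1211 TPM. Apolipoprotein genes other than APOA1 were led by APOE at 1684 and 1659.6 TPM and APOA2 at 487 and 555 TPM, and APOB, the structural protein of large lipoproteins, stood at 117 and 153 TPM. The 3 members at trace level encode carrier proteins of plasma: HP, haptoglobin (0.217 and 0.157 TPM), TF, transferrin (0.453 and 0.506 TPM), and GC, the vitamin D-binding protein (0.715 and 0.754 TPM).

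Liver transcription factors were present in 13 of 15 cases, above the 28.8% of all genes and the 11951 of 19034 protein-coding genes. HNF4A, which sits atop the hepatic network and also acts in the gut, stood at 122 and 128 TPM and FOXA3, a forkhead pioneer factor, at 81.9 and 76.6 TPM. CEBPA, named above, was the second of the list. NR1I2 was at trace level with 0.697 and 0.713 TPM, and NR1I3 had 0 counts; both encode drug-sensing nuclear receptors of mature liver. By contrast with the plasma proteins, mature liver enzymes and transporters had 12 of 26 members present, 7 at trace level and 7 absent, and a sum of 0.0110 ± 9.29e-05% of TPM. The 46.2% present was above the share of all genes but below that of protein-coding genes. Highest were ASGR1 and ASGR2, the asialoglycoprotein receptor chains, at 26.1 and 25.2 TPM and at 13.8 and 13.7 TPM, and the urea cycle genes CPS1 at 18.9 and 22.6 TPM and ASS1 at 17.5 and 15.5 TPM. The cytochrome P450 genes CYP3A4 and its fetal relative CYP3A7, of drug metabolism, and CYP7A1 and CYP8B1, of bile acid synthesis, had 0 counts in both libraries, as had G6PC1, the glucose-releasing phosphatase gene. CYP2E1 and ABCB11, the bile salt export pump gene, were absent as well, CYP2E1 with 0 and 2 counts and ABCB11 with 5 and 11.

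Beside this, fetal and oncofetal genes had 11 of 12 members present and 4.63 ± 0.320% of TPM, nearly all of it from AFP and GPC3. IGF2, a fetal growth factor, stood at 474 and 477 TPM, whereas H19, the non-coding RNA of the same imprinted locus, was absent with 3 and 0 counts. IGF2BP2, which binds mRNA, had 104 and 102 TPM. LIN28B, which blocks maturation of the let-7 microRNAs, had 12.9 and 13.4 TPM. The bile duct list had 7 of 10 present, led by KRT19 at 1092 and 1020.0 TPM, SOX9, GGT1 at 114 and 115 TPM and SOX4 at 91.4 and 94.3 TPM; SCTR, the secretin receptor gene, was absent.

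The stretches upstream of AFP, ALB, FGB and FABP1 are shown because these genes are abundant members of the plasma protein and absorptive lists and hold the motif GTTAAT; they were chosen after the motif was found. Each is the 250 bases before the annotated gene start, 5′ to 3′ on the gene's strand, from RefSeq on GRCh38.p14, with GTTAAT in capitals, or ATTAAC where it is read from the other strand. AFP lies at chr4:73435971-73436220 (+), with the motif starting 132 bases upstream of the gene start, and ALB at chr4:73404037-73404286 (+), with the motif 61 bases upstream. FGB lies at chr4:154562730-154562979 (+) with the motif 51 bases upstream, read on the opposite strand, and FABP1 at chr2:88128063-88128312 (−) with the motif 108 bases upstream.
AFP: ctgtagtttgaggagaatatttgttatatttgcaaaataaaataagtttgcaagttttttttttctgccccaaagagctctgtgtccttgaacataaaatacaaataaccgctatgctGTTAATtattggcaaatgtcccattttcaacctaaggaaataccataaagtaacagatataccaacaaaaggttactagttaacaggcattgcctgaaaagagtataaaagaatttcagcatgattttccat
ALB: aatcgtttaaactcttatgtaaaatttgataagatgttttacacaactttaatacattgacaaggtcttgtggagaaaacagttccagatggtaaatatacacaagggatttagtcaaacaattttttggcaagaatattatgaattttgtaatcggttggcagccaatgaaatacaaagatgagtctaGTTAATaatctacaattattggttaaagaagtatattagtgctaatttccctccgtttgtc
FGB: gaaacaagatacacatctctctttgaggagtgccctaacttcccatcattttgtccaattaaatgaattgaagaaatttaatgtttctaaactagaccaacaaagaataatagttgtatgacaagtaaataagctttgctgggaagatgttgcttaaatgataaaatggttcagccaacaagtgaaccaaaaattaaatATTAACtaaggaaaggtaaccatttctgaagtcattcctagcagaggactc
FABP1: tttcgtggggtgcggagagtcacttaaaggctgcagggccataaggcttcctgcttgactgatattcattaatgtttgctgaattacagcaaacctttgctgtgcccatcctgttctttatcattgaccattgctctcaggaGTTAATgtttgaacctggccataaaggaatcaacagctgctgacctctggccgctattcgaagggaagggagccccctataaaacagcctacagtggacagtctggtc

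All 6 motifs searched were looked for on both strands of the 250 bases upstream of 27305 genes, and 296 listed genes had such an entry. GTTAAT was found in 6.22% of all promoters, in 6 of 17 plasma protein promoters (AFP, ALB, APOH, FGA, FGB and F2), in 4 of 14 of the intestinal absorptive list (FABP1, SI, SLC5A1 and KRT20), and in 0 of 20 type 2 and 0 of 15 mitotic promoters. It was also in 2 of 12 lung progenitor promoters, 2 of 16 type 1, 2 of 6 stomach, 2 of 9 intestinal secretory and stem cell and 2 of 17 mature liver promoters. Each other list had 0 or 1 match. Of the plasma protein genes that hold it, APOH was low, at 1.81 and 1.62 TPM, and SLC5A1 of the absorptive list was at trace level. The other motifs are given for the same 4 lists. CAAAGTCCA for HNF4 was in 0.293% of all promoters, with 1 of 17 plasma protein, 0 of 14 absorptive, 0 of 20 type 2 and 0 of 15 mitotic promoters. TGTTTAC for FOXA was in 2.98% of all promoters, with 1 of 17, 0 of 14, 2 of 20 and 1 of 15 in that order. TTTATNG for CDX was in 9.29% of all promoters, with 1 of 17 plasma protein, 3 of 14 absorptive, 4 of 20 type 2 (SFTPA1, SFTPA2, SFTPD and DMBT1) and 0 of 15 mitotic promoters. AGATAA for GATA was in 9.37%, with 4 of 17, 3 of 14, 1 of 20 and 0 of 15, and the TATA box TATAAA in 11.1%, with 1 of 17, 2 of 14, 7 of 20 and 1 of 15. A stretch reading TTTATAG holds both the CDX letters and the TATA box on the other strand. These matches describe letters of the reference and say nothing about binding in these cells.

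The intestinal program was present in part. CDX2, the factor that sets intestinal identity, stood at 133 and 131 TPM (rank 1037), but its relative CDX1 had 0 counts in both libraries. KLF5, a factor of crypt epithelium, had 271 and 284 TPM, ISX, an intestine-specific homeodomain factor that limits vitamin A uptake, had 193 and 202 TPM, and GATA4 had 90.4 and 90.9 TPM. The posterior genes HOXA10 (0 counts) and HOXA13 (10 and 10 counts) were absent. In all 6 of the 12 intestinal transcription factors were present, above the 28.8% of all genes but below the 11951 of 19034 protein-coding genes.

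Absorptive cell genes of the intestine had 17 of 20 members present, 3 at trace level and none absent, with 0.446 ± 0.0124% of TPM. CDH17, the liver-intestine cadherin, led at 1148 and 1252 TPM (rank 133). ANPEP, aminopeptidase N of the brush border, had 946 and 1037 TPM, and FABP1, the fatty acid-binding protein of liver and gut, had 856 and 874 TPM. LGALS4, a galectin of the gut lining, followed at 333 and 301 TPM. VIL1, the microvillus protein villin, stood at 105 and 114 TPM. The brush border enzymes were lower, with SI, sucrase-isomaltase, at 13.3 and 18.9 TPM, LCT, lactase, at 10.5 and 9.81 TPM and ALPI, intestinal alkaline phosphatase, at 1.83 and 2.14 TPM. FABP2, the intestinal fatty acid-binding protein gene, was at trace level (0.859 and 0.609 TPM), below FABP1 by orders of magnitude.

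Secretory and stem cell genes of the intestine had 7 of 15 present and 3 absent. That share was above the 28.8% of all genes but below the 11951 of 19034 protein-coding genes present. REG4, a lectin of enteroendocrine and goblet cells, stood at 264 and 250.1 TPM, PROM1, prominin of progenitor cells, at 220.2 and 254 TPM, LYZ, lysozyme, at 219 and 194 TPM and TFF3, a trefoil peptide of goblet cells, at 71.0 and 65.9 TPM. LGR5, the R-spondin receptor of crypt stem cells, had 6.58 and 7.44 TPM. MUC2, the main gel-forming mucin of goblet cells, was at trace level with 0.248 and 0.234 TPM. The Paneth cell defensin genes DEFA5 and DEFA6 and the goblet gene SPINK4 had 0 counts.

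Other endoderm organs were represented unevenly. Their counts stand beside the 28.8% of all genes and the 11951 of 19034 protein-coding genes that were present. On the stomach list 8 of 12 genes were present, with CLDN18 given above, VSIG1, a junction protein of the stomach, at 382 and 353 TPM, and the trefoil genes TFF1 at 321 and 276 TPM and TFF2 at 145 and 135 TPM. GKN1 and GKN2, the gastrokines of the mature stomach lining, had 0 counts, and the mucin genes MUC5AC (0.477 and 0.497 TPM) and MUC6 (0.245 and 0.232 TPM) were at trace level. The pancreas list had 6 of 13 present, led by PRSS1, a trypsinogen with near-identical copies, at 98.3 and 109.7 TPM, PDX1 at 99.6 and 87.6 TPM, RFX6, an endocrine progenitor factor, at 43.3 and 47.6 TPM and MNX1, a homeodomain factor, at 5.79 and 5.19 TPM. PTF1A, INS, GCG and PNLIP, which mark acinar and hormone cells, had 0 counts. Of the 8 thyroid genes 2 were present, HHEX (23.2 and 26.97 TPM) and FOXE1 (1.01 and 1.24 TPM). HHEX is also on the definitive endoderm and liver transcription factor lists, and FOXE1 is also on the anterior foregut list. PAX8, which with NKX2-1 defines the thyroid, was at trace level with 0.274 and 0.563 TPM.

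Every one of the 12 general endoderm factors was present at 10 TPM or more. SOX9 and HNF4A headed that list, GATA6 stood at 107 and 107 TPM, FOXA1 at 103 and 109 TPM and FOXA2 at 40.9 and 38.9 TPM. Definitive endoderm markers, which belong to the first stage of the protocol, had 6 of 11 present: GATA6, GATA4, CXCR4, a chemokine receptor (62.0 and 76.0 TPM), HHEX, SOX17 (10.1 and 10.9 TPM) and KIT. GSC, CER1 and LHX1, genes of the early organizer and endoderm, were absent. On the anterior foregut list 6 of 11 were present, with SHH, the hedgehog ligand, at 50.4 and 52.1 TPM, OTX2 at 25.4 and 28.9 TPM, SOX2, and TBX1 at 7.29 and 5.28 TPM.

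All 18 members of the epithelial list were present, beside 28.8% of all genes and 11951 of 19034 protein-coding genes. Of the 18 members 11 reached 100 TPM or more, and the list made up 0.975 ± 0.0110% of TPM. KRT8 and KRT18, the keratin pair of simple epithelia, stood at 2637 and 2501 TPM and at 1667 and 1558 TPM. EPCAM, the epithelial adhesion molecule, had 1509.8 and 1658 TPM and CDH1, E-cadherin, had 490.4 and 522 TPM. CLDN6, a claudin of embryonic epithelia, stood at 622 and 628 TPM.

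Mesenchymal genes were present at lower levels. Of the 20 members 14 were present, 6 were at trace level and none was absent, with 0.121 ± 0.0106% of TPM. VIM, the intermediate filament vimentin, led with 572 and 642 TPM, and KRT8 was 4.61 and 3.89 times as high. LUM, the small proteoglycan lumican, stood at 263 and 282 TPM and CDH2, N-cadherin, at 209 and 245 TPM. The fibrillar collagen genes on the list were lower, with COL3A1 at 19.1 and 25.7 TPM and COL1A1 at 16.9 and 22.6 TPM. Some other collagen genes of connective tissue, outside the list and chosen after their values were seen, were higher. These were COL6A1 at 208 and 187 TPM, COL14A1 at 133 and 145 TPM and COL5A2 at 56.3 and 62.9 TPM. Others outside the list were lower, such as COL5A1 at 2.98 and 3.60 TPM and COL12A1 at 2.30 and 2.50 TPM. PDGFRA, a growth factor receptor of fibroblasts, had 10.2 and 13.97 TPM. DCN, the proteoglycan decorin, had 0.812 and 1.01 TPM, so that LUM was 324 and 278 times as high. The regulators of lung and gut mesenchyme had 1 of 12 present, BARX1, a stomach mesenchyme factor, at 2.63 and 2.27 TPM, and 5 absent: TBX5, WNT2 and MEOX2 with 0 counts, FOXF1 with 0 and 2 and HAND1 with 4 and 4 counts. After BARX1 came WNT2B at 0.852 and 1.32 TPM, TBX4 at 0.900 and 1.09 TPM and NKX3-2 at 0.851 and 0.603 TPM.

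The smooth muscle, endothelial, blood and neural counts stand beside the 28.8% of all genes and the 11951 of 19034 protein-coding genes present. Smooth muscle genes had 3 of 8 present, TAGLN at 35.7 and 24.6 TPM, ACTA2 at 26.3 and 23.2 TPM and CNN1 at 4.74 and 4.07 TPM, with MYOCD, their transcriptional activator, at trace level (0.745 and 0.957 TPM). MYH11, smooth muscle myosin, was absent with 0 and 8 counts, and DES, desmin, had 0. Endothelial genes had 2 of 10 present, ESAM at 3.16 and 4.01 TPM and PECAM1 at 1.82 and 2.86 TPM, while CDH5, VE-cadherin, was at trace level (0.257 and 0.216 TPM) and VWF was absent. Of 10 blood cell genes 3 were present, CD68, a lysosomal protein, at 141 and 129 TPM, CSF1R at 5.18 and 5.68 TPM and CD14 at 5.16 and 4.67 TPM, but PTPRC, the pan-leukocyte gene, and SPI1 had 0 counts.

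Neural genes had 4 of 10 present, led by TUBB3 at 34.8 and 32.5 TPM, NES at 19.5 and 21.9 TPM and STMN2 at 16.4 and 21.9 TPM. Skeletal and cardiac muscle had 0 of 8 present and kidney 0 of 8, the lowest of all lists against 28.8% of all genes. Trophoblast had 2 of 12 present, CGA, the common hormone chain gene, at 10.8 and 8.18 TPM and GATA3 at 5.01 and 4.86 TPM. HLA-G, of the same list, had 55 and 0 counts. It has close relatives among the HLA genes, and the assignment of its reads is uncertain.

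Of the pluripotency genes 4 of 12 were present, near the 28.8% of all genes and below the 11951 of 19034 protein-coding genes. They were SALL4 at 19.9 and 21.5 TPM, LIN28A at 17.7 and 21.9 TPM, SOX2 as above and DNMT3B at 2.60 and 3.05 TPM. POU5F1 and NANOG, which define the pluripotent state, had 0 counts in both libraries, as had PRDM14, UTF1 and DPPA2. The 4 present genes are also used by fetal progenitors, and SALL4 is on the oncofetal list too.

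Cell cycle genes were present nearly throughout. The G2 phase and mitosis list had all 19 members present, with 0.0977 ± 0.00387% of TPM, and the DNA replication list 17 of 18, with 0.0667 ± 0.00538%. MKI67, the proliferation marker Ki-67, stood at 21.8 and 24.1 TPM, TOP2A, topoisomerase II alpha, at 92.0 and 105 TPM, UBE2C, a ubiquitin-conjugating enzyme of mitosis, at 119.9 and 117 TPM and CCNB1, cyclin B1, at 97.6 and 103 TPM. Among replication genes TYMS, thymidylate synthase, led with 98.4 and 105 TPM, then MCM7 of the replicative helicase with 84.0 and 91.0 TPM, PCNA, the polymerase clamp, with 74.2 and 89.0 TPM and MCM3 with 56.2 and 62.2 TPM. Inhibitors of the cycle had 6 of 8 present, with CDKN1A (p21) at 198 and 177 TPM, CDKN1C (p57) at 153 and 133 TPM and CDKN1B (p27) at 81.7 and 88.1 TPM. CDKN2A, which encodes p16, was at trace level with 0 and 6 counts.

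**Figure D4:**
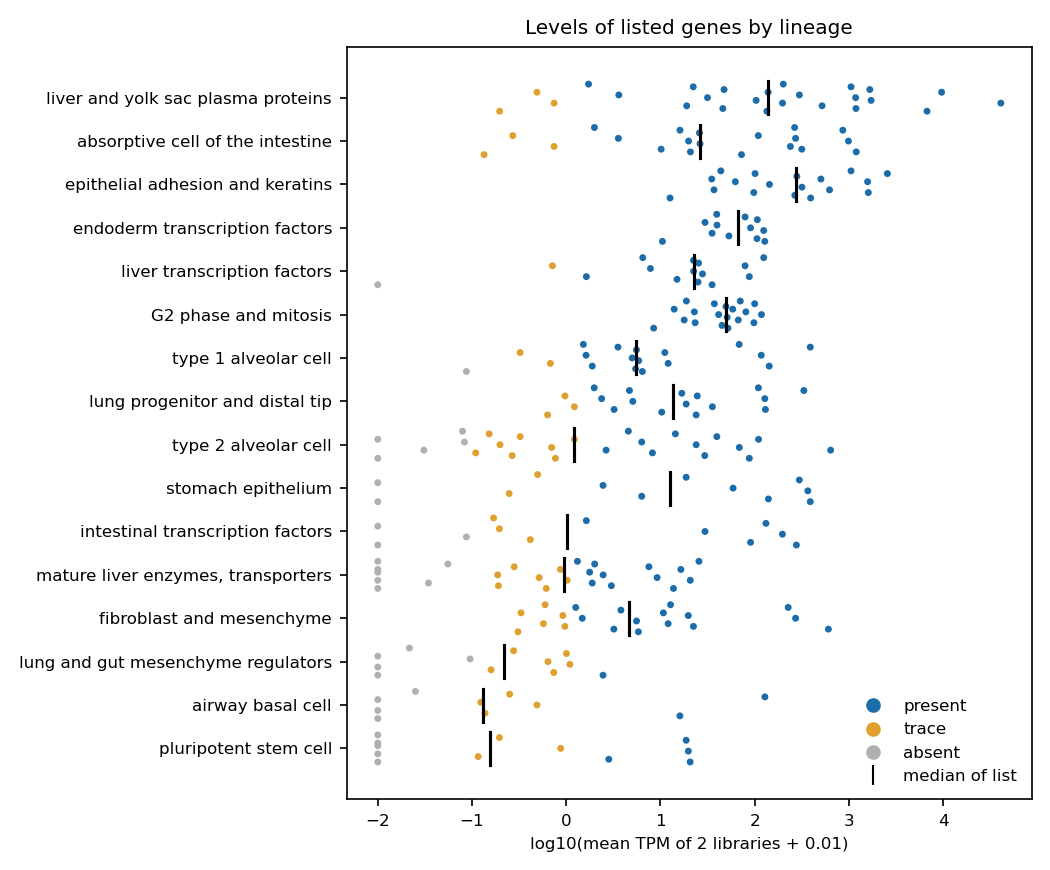
Each point is a listed gene at log10 of its mean TPM over the 2 untreated libraries plus 0.01, coloured as present (blue), trace (orange) or absent (grey), with the median of each list as a black bar. Plasma protein and epithelial lists have medians of 139 and 274 TPM, the type 2 list 1.21 TPM and the pluripotent list 0.146 TPM.

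The 2 libraries differed little for most genes. Among 8295 genes with a mean of at least 10 TPM, the log2 ratio of replicate 2 over replicate 1, taken on TPM plus 1, had an SD of 0.15, and 7962 genes (96.0%) lay within 1.25-fold. Over 1.5-fold lay 33 genes and over 2-fold 6 genes. The largest differences toward replicate 1 were those of the pseudogene RPL41P3 (39.4 and 12.9 TPM), the small nuclear RNA RN7SK (24.8 and 8.34 TPM) and the 18S ribosomal RNA copies RNA18SN2, RNA18SN1 and RNA18SN3 (1269 and 553 TPM for the last). Ribosomal RNA copies are near-identical, so their levels are not independent of each other. Toward replicate 2 they were those of LUZP6 (7.58 and 16.2 TPM), HMOX1, the heme-degrading enzyme (19.1 and 39.1 TPM), DYM (18.2 and 34.8 TPM), SLC2A3, a glucose transporter (138 and 245 TPM), and SUPT3H (10.4 and 17.96 TPM). For DYM and SUPT3H the read counts were nearly equal, 4529 and 4565 for the first and 832 and 837 for the second, and TPM and counts moved apart by more than 0.5 on the log2 scale for 20 genes.

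The differences moved with gene length. Of the 8295 genes 66.9% were higher in replicate 2, and this share moved with gene length, as estimated from counts and FPKM: it was 39.9% in the shortest 20% of genes and 90.6% in the longest 20%, with median log2 ratios of -0.04 and 0.16. Among the short cytosolic ribosomal protein genes 4 of 82 were higher in replicate 2 (median -0.13). Genes of the low-oxygen response and glycolysis, a list of 23 of any level chosen after their values were seen, were higher in replicate 2 in 22 cases (median 0.24). Because of that choice, the count cannot show that this group differs from other genes. Among its members were SLC2A3, given above, and HK2, hexokinase 2, at 44.4 and 68.3 TPM. The mesenchymal list was higher in replicate 2 for 19 of 20 members of any level (median 0.20), the replication list for 16 of 18 and the mitosis list for 16 of 19. The part of gene length in these list values was not tested.

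**Figure D5:**
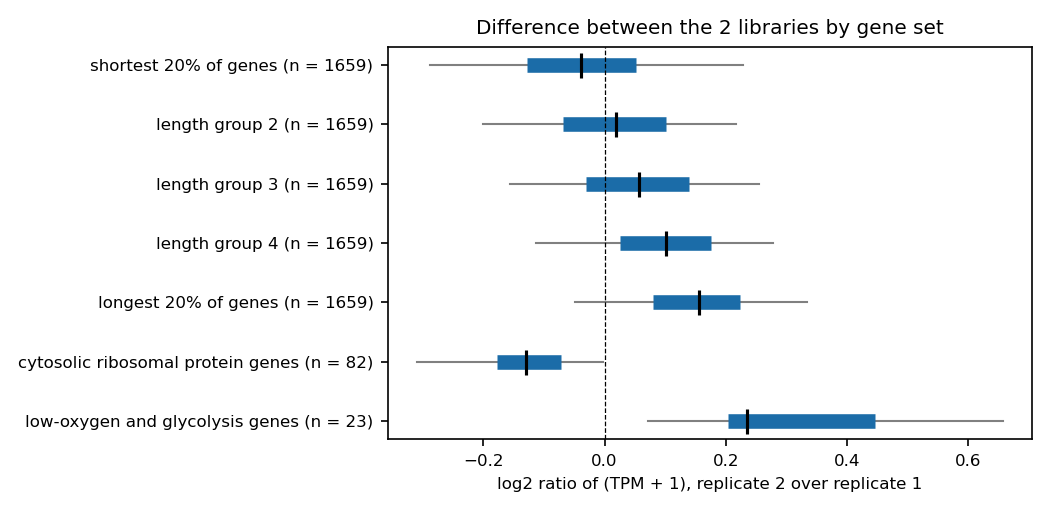
Log2 ratio of TPM plus 1, untreated replicate 2 over replicate 1, for 5 equal groups of 8295 genes by estimated length and for 2 gene sets; black ticks are medians, blue bars the middle 50% and grey lines the 5th to 95th percentile of genes. Medians run from -0.04 in the shortest group to 0.16 in the longest, with ribosomal protein genes at -0.13 and low-oxygen and glycolysis genes at 0.24. The low-oxygen and glycolysis set was chosen after its values were seen and includes genes below 10 TPM.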

How the data were processed

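Messenger RNA was measured in 2 untreated libraries, made per the labels' protocols from 1 µg of total RNA with a TruSeq stranded mRNA kit. The authors deposited 3 tables with 1 value per gene symbol and library: whole-number read counts, TPM and FPKM. The submitters' processing notes name the build GRCh38 and the tools HISAT2, StringTie, Bowtie2 and Trimmomatic; versions, annotation release and strand setting are not given in the sources used here. Without a stated strand setting, reads of overlapping or antisense genes cannot be separated. The deposited TPM values gave levels and ranks, the deposited counts gave depth and the check on low genes, and the deposited FPKM values gave 1 alternative and, with counts, an estimated gene length. Of 46425 symbols 42656 matched RefSeq (GRCh38.p14), and for G6PC1 the files hold an older symbol.

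Values were computed in Python 3.11.15 with pandas 2.3.3 from the untreated columns only, and the scripts were checked on simulated data. A gene was present at 1 TPM or more in both libraries, absent below 0.1 TPM in both, and at trace level otherwise. Differences between the libraries used log2(TPM + 1). Those over all genes and over ribosomal protein genes took genes with a mean of at least 10 TPM. Those over marker lists and over low-oxygen and glycolysis genes took genes of any level. No other filter was set on low values. The text names the 30 most abundant genes, the 4 highest members of each list, absent members of the main lists, a fixed set of markers and the 5 largest differences in each direction; other genes named were chosen after their values were seen, and some genes the rule names are not reported here. Lists and members were chosen with earlier results of these data known, from textbook markers. Alternatives changed the threshold, the unit and the rows scaled, and left out each library.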

Additional observations from a re-analysis of the deposited data

How the results depend on the processing

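The number of present genes stayed within 1.5 times of 13369 under all 8 alternatives, between 10106 at 5 TPM and 14743 at 0.5 TPM. At 5 TPM in both libraries the number present fell by over 1.5 times in 9 lists: airway secretory 1, ciliated 3, neuroendocrine 0, mature liver 6, thyroid 1, trophoblast 1, mesenchymal 9, mesenchyme regulators 0 and endothelial 0. Smaller falls occurred in other lists, among them lung progenitor and type 1, each from 15 to 10, and type 2, from 12 to 10. At 1 FPKM or more the counts that moved by over 1.5 times were airway secretory 1, ciliated 3, neuroendocrine 1, mature liver 7, thyroid 1, mesenchyme regulators 0 and endothelial 1. At 0.5 TPM the neuroendocrine list and the mesenchyme regulators had 5 each, and by mean TPM the latter had 2. With 1 library left out the mesenchyme regulators ranged from 1 to 3 present, the higher value without replicate 1; no other list count moved by over 1.5 times.

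As a share of read counts, which are not scaled by length, the plasma proteins held 5.75%, oncofetal genes 4.99%, epithelial 0.912%, absorptive 0.519%, type 2 0.132%, type 1 0.134%, mesenchymal 0.147%, mitosis 0.124%, replication 0.0801% and pluripotent genes 0.0104%. The first 10, 100 and 1000 genes, ranked anew by read counts, held 10.8%, 26.8% and 58.5% of counts. Without mitochondrial and ribosomal RNA genes the TPM shares were plasma proteins 6.94%, epithelial 1.02%, absorptive 0.468%, type 2 0.109%, type 1 0.0819% and mitosis 0.102%, and the first 10 and 1000 genes held 12.3% and 69.2%. Among genes of at least 1 TPM on average the log2 ratio between libraries had an SD of 0.21, and 41 genes lay over 2-fold apart.

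No paired analysis was possible because no groups were compared. With 2 libraries of 1 line, levels about 1 TPM rest on few counts, and the spread over cultures is not known.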

Other observations

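Several abundant genes lay outside the lists and were chosen after their values were seen. AGR2, a disulfide isomerase of mucus-producing epithelia, stood at 2288 and 2079 TPM (rank 70), and NDRG1, a gene of low-oxygen and differentiation responses, at 2594 and 2840.0 TPM. SPINK1, a trypsin inhibitor of pancreas and gut, had 1378 and 1223 TPM. MSMB, beta-microseminoprotein, stood at 806 and 630.4 TPM, NTS, the gut peptide neurotensin, at 531 and 484 TPM and MMP1, interstitial collagenase, at 536 and 615 TPM. CST1, a secreted cystatin, differed between the libraries with 528 and 788 TPM. FN1, fibronectin, was in place 34 with 3104 and 3707 TPM.

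Collagen genes, also chosen after their values were seen, had 22 of 44 members present, of which 8 reached 100 TPM in both libraries. That share was above the 28.8% of all genes but below the 11951 of 19034 protein-coding genes present. COL2A1, the fibrillar collagen of cartilage, was the highest at 594 and 685 TPM (rank 222), 35.2 and 30.3 times as high as COL1A1. Next came the basement membrane collagens COL4A2 at 314 and 322 TPM and COL18A1 at 222 and 224 TPM. Of 55 keratin genes 7 were present, a share under that of all genes, the highest of them KRT8, KRT18 and KRT19. Of 39 HOX genes, which give position along the body axis, 7 were present, also under that share, and 22 were absent, and none reached 10 TPM in both. No gene of paralog groups 2, 7 and 9 to 13 was present, in libraries where CDX2 stood at 133 and 131 TPM. The other groups had 1 or 2 present genes each. Of 55 cytochrome P450 genes 17 were present, near the 28.8% of all genes but below the share of protein-coding genes. They were led by CYP51A1 of sterol synthesis at 136 and 161 TPM and CYP2S1 at 141 and 137 TPM.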
